A study of Arabidopsis thaliana with 4 samples.

Results

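The salicylate branch of plant immunity was followed through 6 genes in mixed-stage inflorescences of Arabidopsis thaliana: EDS1, PAD4, WRKY70, PR1, PR2 and PR5. Each was read as 1 probe set of the Affymetrix ATH1 array (252373_at, 252060_at, 251705_at, 266385_at, 251625_at and 259925_at, in that order), 6 of the 22810 probe sets measured. The probe sets were chosen by name as standard genes of this pathway, with earlier results of these data known, so shares and ranks of the 6 are descriptions and not independent evidence. The platform annotation used here lists none of the 6, so the gene names are those given with the probe sets, and TAIR10.1 supplies their loci (AT3G48090, AT3G52430, AT3G56400, AT2G14610, AT3G57260 and AT1G75040). TAIR10.1 lists PR2 under the symbol BGL2.

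The study compared Col-0, the wild type, with xrn4-5, a mutant allele of XRN4 in the Col-0 ecotype, to find transcripts whose level differs in the mutant. XRN4 is a 5'-to-3' exoribonuclease of the cytoplasm whose substrates are RNAs that have lost their cap. Both genotypes grew in long days (16 h light, 8 h dark; 21 °C), with no pathogen or hormone treatment named in the labels, and were represented by 2 arrays each, numbered 1 and 2, so 4 arrays in all. The labels do not state plant age, whether plants were pooled, or whether the 2 arrays of each genotype stand for separate plantings. The p-values below therefore reflect the spread of these samples alone, and part or all of it may be technical.

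Salicylic acid accumulates in plants attacked by biotrophic pathogens and switches on a set of secreted antimicrobial proteins. EDS1 and PAD4 are lipase-like proteins that form a complex, relay signals from intracellular immune receptors and promote salicylate accumulation. Salicylate then acts through NPR1 and its TGA transcription factor partners. WRKY70 is a transcription factor induced by salicylate that promotes salicylate responses and holds back jasmonate responses. PR1, PR2 and PR5 are the classical output genes: PR1 encodes a small secreted protein of the CAP family, PR2 a beta-1,3-glucanase and PR5 a thaumatin-like protein.

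One array stood apart in these genes. All 6 had their highest signal on array 2 of Col-0, which was the highest of the 4 arrays in 21.7% of all 22746 probe sets other than controls. The 4 arrays had been scaled to the same trimmed mean and their median signals lay between 239.6 and 248.0, so array 2 of Col-0 was not brighter as a whole after scaling. Whether it was brighter before scaling cannot be told from these values. Each genotype difference given below for the 6 genes therefore stands beside its value without that array. In whole tissue, fewer cells of a type and less RNA per cell cannot be told apart.

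The 3 output genes had much the same signal on 3 arrays and several times as much on array 2 of Col-0. PR1 gave 160.3 and 1154.1 on Col-0 arrays 1 and 2, and 137.0 and 149.0 on xrn4-5 arrays 1 and 2. PR2 gave 223.3 and 1307.6 in Col-0 against 240.2 and 175.9 in xrn4-5. PR5 gave 334.3 and 2084.0 in Col-0 against 358.5 and 292.1 in xrn4-5. Array 2 of Col-0 exceeded the next highest array 7.20-fold for PR1, 5.44-fold for PR2 and 5.81-fold for PR5. Array 1 of Col-0 lay within the range of the xrn4-5 arrays for PR2 and PR5 and just above it for PR1. No detection calls were used here, so whether the PR1 signals between 137.0 and 160.3 lie above background is not known.

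**Figure D1:**
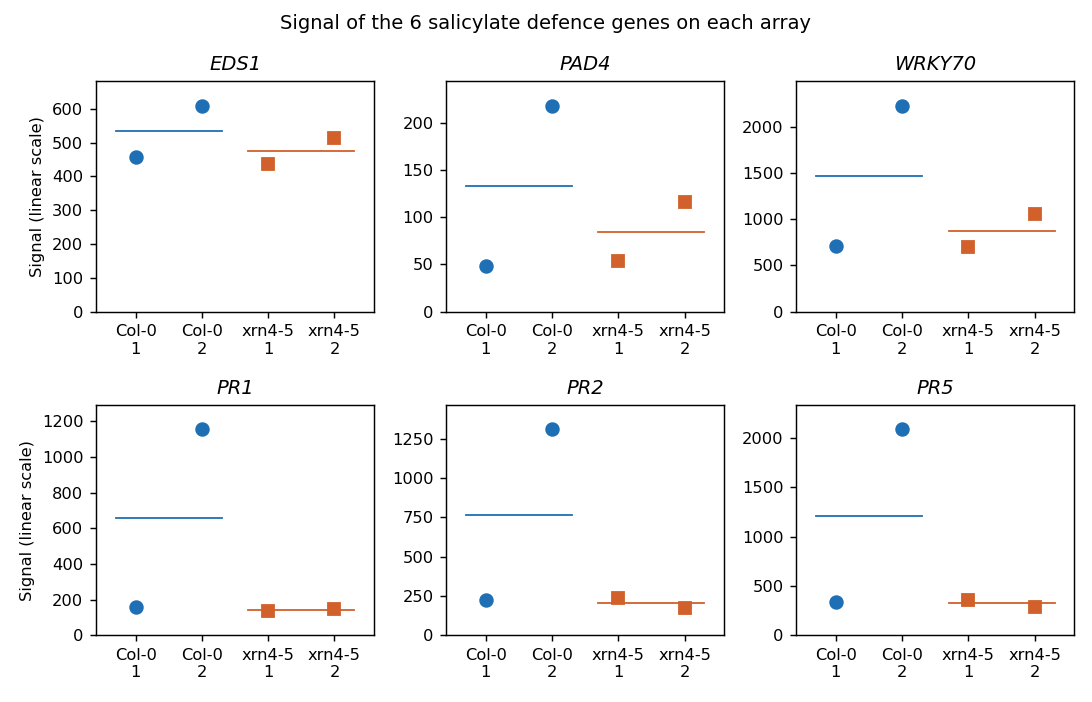
Signal of each gene on the 4 arrays (linear scale, y axis from 0); circles are Col-0, squares xrn4-5, and the short lines are the means of the 2 arrays of a genotype. In every panel the highest point is array 2 of Col-0, and for PR1, PR2 and PR5 the other 3 arrays lie close together.

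As means, PR1 was 657 ± 703 (SD, n = 2) in Col-0 and 143 ± 8.49 in xrn4-5. The means of PR2 were 765 ± 767 and 208 ± 45.5, and those of PR5 were 1209 ± 1237 and 325 ± 47.0. The SD in Col-0 was about as large as the mean for all 3 genes. On the log2(signal + 32) scale, which understates differences of dim probe sets, the xrn4-5 minus Col-0 difference was -1.45 for PR1, with a 95% interval from -3.64 to 0.74. It was -1.30 for PR2 (-3.31 to 0.72) and -1.31 for PR5 (-3.41 to 0.80). None of the 3 passed in limma with adjustment over the whole array (adjusted p from 0.740 to 0.754).

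Without array 2 of Col-0 these differences shrank to -0.14 for PR1, -0.10 for PR2 and -0.04 for PR5. Their 95% intervals were -0.81 to 0.54, -0.85 to 0.65 and -0.63 to 0.54. Without array 1 of Col-0 they grew to -2.76, -2.49 and -2.57, with intervals from -3.28 to -2.24, from -3.14 to -1.85 and from -3.07 to -2.08. The limma adjusted p-values of that fit were 0.475, 0.649 and 0.475, and the unadjusted ones 0.000115, 0.000401 and 0.000125. In both fits the lone Col-0 array is assumed to vary like the 2 xrn4-5 arrays. Which of the Col-0 arrays represents the wild type better cannot be told from 2 arrays.

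The regulators upstream of these output genes showed smaller gaps and another order of arrays. WRKY70 gave 713.6 and 2224.1 on Col-0 arrays 1 and 2, and 695.5 and 1056.7 on xrn4-5 arrays 1 and 2. PAD4 gave 48.9 and 218.1 in Col-0 against 53.9 and 115.7 in xrn4-5. EDS1 gave 457.0 and 608.6 in Col-0 against 437.4 and 513.2 in xrn4-5. For all 3 genes, array 2 lay above array 1 in both genotypes, and array 2 of xrn4-5 was the second highest of the 4. With a mean of 109 over the 4 arrays, PAD4 was the only one of the 6 genes in the dimmest 40% of probe sets. That limit is a mean of 159.5, and PR1 had only 137.0 to 160.3 on the arrays other than array 2 of Col-0.

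The genotypes overlapped for WRKY70, PAD4 and EDS1. WRKY70 averaged 1469 ± 1068 (SD, n = 2) in Col-0 and 876 ± 255 in xrn4-5, a log2 difference of -0.54 with a 95% interval from -1.96 to 0.87. PAD4 averaged 134 ± 120 and 84.8 ± 43.7, a log2 difference of -0.34 (-1.89 to 1.22). EDS1 averaged 533 ± 107 and 475 ± 53.6, a log2 difference of -0.15 (-0.61 to 0.32). The limma adjusted p-values were 0.843, 0.915 and 0.871. Without array 2 of Col-0 the estimates turned to 0.26 for WRKY70, 0.48 for PAD4 and 0.05 for EDS1, with adjusted p-values from 0.832 to 0.968 in limma. Their 95% intervals were -0.52 to 1.03, -0.67 to 1.63 and -0.44 to 0.54. Without array 1 of Col-0 they were -1.34, -1.15 and -0.34 (limma adjusted p from 0.649 to 0.728).

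**Figure D2:**
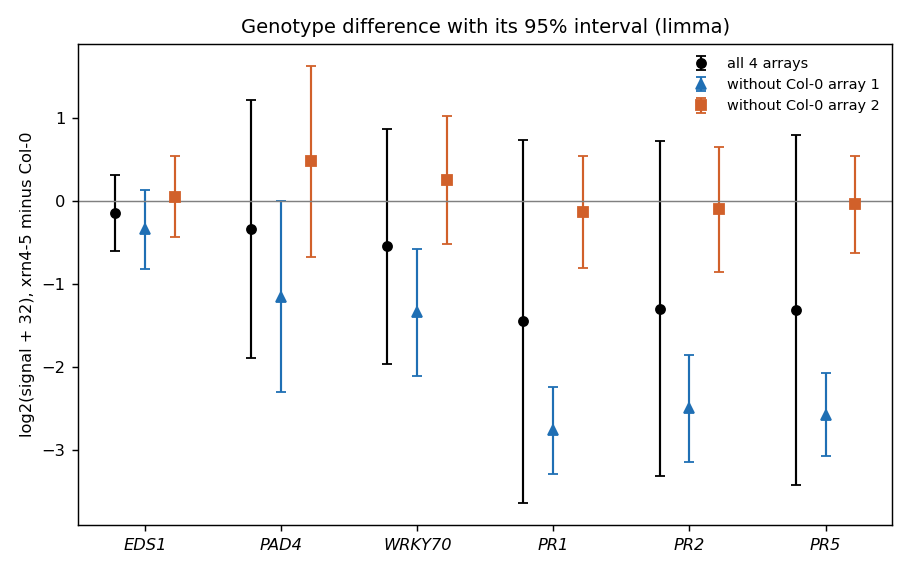
Difference xrn4-5 minus Col-0 in log2(signal + 32) for each gene, with the 95% interval from limma, over all 4 arrays (circles) and without 1 of the Col-0 arrays (triangles and squares). With all arrays every interval includes 0, without array 2 of Col-0 every estimate lies between -0.14 and 0.48, and without array 1 of Col-0 the estimates run from -0.34 to -2.76.

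Counted over the 6 genes, 0 passed the adjusted limma test in either direction, as did 0 of 22746 probe sets (0% called). At an unadjusted limma p under 0.05, 0 of the 6 were lower or higher in xrn4-5. Over the array 798 probe sets (3.51%) were lower and 1014 (4.46%) higher by that rule. A test per probe set that shares no variance gave 0 adjusted calls, and at an unadjusted p under 0.05 it gave 427 higher and 296 lower, none of the 6 among them. Without array 1 of Col-0, 4 of the 6 (WRKY70, PR1, PR2 and PR5) were lower at an unadjusted limma p under 0.05, against 3.31% of all probe sets, and 0 of the 6 were higher, against 3.93%. Without array 2 of Col-0 it was 0 of 6, against 4.05% lower and 4.04% higher of all probe sets. The log2 difference was -1 or lower with all arrays in 3 of the 6, the output genes, against 0.426% of all probe sets. It was below 0 in 6 of 6, against 47.0% of all probe sets, and without array 2 of Col-0 in 3 of 6, against 49.2%. Only PR1 had both xrn4-5 arrays below both Col-0 arrays, which 17.2% of all probe sets also had. The median log2 difference of the 6 was -0.92 with all arrays and 0.00 without array 2 of Col-0, beside 0.016 and 0.005 for all probe sets.

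The size of the gap placed the output genes at the end of the whole array. By the margin of array 2 of Col-0 over the highest of the other 3 arrays, a measure chosen after the values were seen, PR1 ranked 1, PR5 ranked 2 and PR2 ranked 3 of 22746 probe sets. Their margins were 2.62, 2.44 and 2.30 on the log2(signal + 32) scale. WRKY70 ranked 63 with a margin of 1.05, PAD4 ranked 165 with 0.76, and EDS1 ranked 1206 with 0.23. With a pseudocount of 1 in place of 32, which lets dim probe sets show larger folds, the ranks of PR1, PR5 and PR2 were 10, 17 and 21. A margin of at least 1, which is 2-fold in signal + 32, was reached by 4 of the 6 genes and by 70 probe sets in all (0.308%). With a pseudocount of 1 the same margin was reached by 261 probe sets (1.15%) and again by 4 of the 6 genes. Among the 13647 probe sets left without the dimmest 40% it was reached by 36 (0.264%). That filter used the mean of all 4 arrays, so a high signal on array 2 of Col-0 helped a probe set to pass it. The same margin was reached by array 1 of Col-0 in 0.132% of probe sets, by array 1 of xrn4-5 in 0.0703% and by array 2 of xrn4-5 in 0.0967%, with none of the 6 genes among them.

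**Figure D3:**
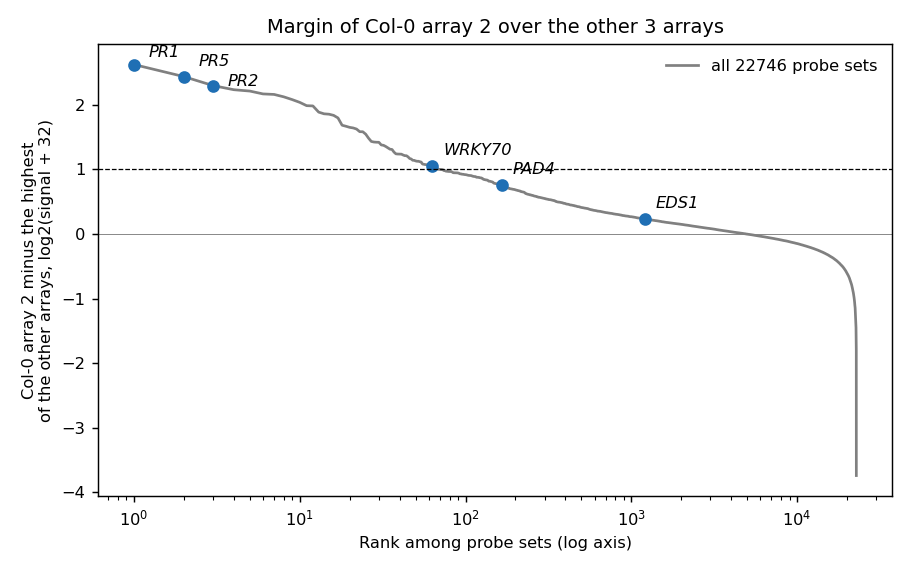
Margin of array 2 of Col-0 over the highest of the other 3 arrays, in log2(signal + 32), for all 22746 probe sets ordered by rank (log axis); circles are the 6 genes and the dashed line marks a margin of 1. PR1, PR5 and PR2 hold the first 3 ranks, WRKY70 lies just above the dashed line, and PAD4 and EDS1 lie below it.

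The authors' deposited table, which compares same-numbered arrays, shows the same split by pair. For the arrays numbered 1, the authors' deposited table gives log2 ratios of xrn4-5 over Col-0 of -0.4 for PR1, 0.2 for PR2, 0.1 for PR5, -0.1 for WRKY70, 0.3 for PAD4 and 0 for EDS1. For the arrays numbered 2, the authors' deposited table gives -2.7 for PR1, -3.2 for PR2, -2.8 for PR5, -1 for WRKY70, -1 for PAD4 and -0.4 for EDS1. The change p-value in the authors' deposited table, which runs toward 1 for a decrease, was over 0.99 for 6 of 6 in the pair numbered 2 (6.37% of all probe sets) and for 0 of 6 in the pair numbered 1 (6.92%). With a log2 ratio of -1 or lower as well, it was 5 of 6 in the pair numbered 2 (0.958%), all but EDS1, and 0 of 6 in the pair numbered 1 (0.932%), again in the authors' deposited table.

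Within Col-0 all 6 genes stepped up from array 1 to array 2, and within xrn4-5 the steps were smaller and of both signs. In Col-0, array 2 exceeded array 1 by 2.62 (PR1), 2.39 (PR2) and 2.53 (PR5) on the log2(signal + 32) scale, and by 1.60 for WRKY70, 1.63 for PAD4 and 0.39 for EDS1. In xrn4-5 the same difference was 0.10 for PR1, -0.39 for PR2 and -0.27 for PR5, and 0.58 for WRKY70, 0.78 for PAD4 and 0.22 for EDS1. On the linear scale, array 2 of xrn4-5 stood 2.15-fold above array 1 for PAD4, 1.52-fold for WRKY70 and 1.17-fold for EDS1. Array 2 lay above array 1 in both genotypes for 4 of the 6 genes, all but PR2 and PR5, and for 27.0% of all probe sets. With 1 array of each kind these differences have no test, and the labels do not say what an array number marks.

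**Figure D4:**
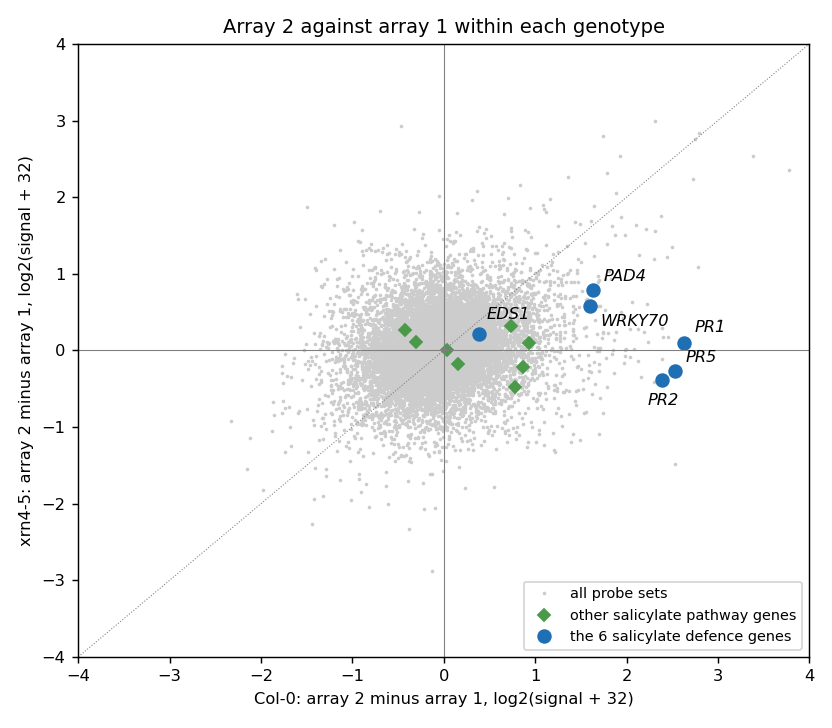
Array 2 minus array 1 in log2(signal + 32), for Col-0 (x axis) and xrn4-5 (y axis); grey points are all probe sets, circles the 6 genes, diamonds the 8 other salicylate pathway genes with a named probe set, and the dotted line marks equal differences. PR1, PR2 and PR5 lie far to the right and near 0 on the y axis, while PAD4 and WRKY70 lie to the right and above 0.

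In their profile over the 4 arrays, each centred on its own mean, the output genes lay close to one another, as did PAD4 and WRKY70. The root mean square difference was 0.065 on the log2(signal + 32) scale between PR2 and PR5, 0.15 between PR1 and PR5, 0.21 between PR1 and PR2, and 0.13 between PAD4 and WRKY70. It was 0.58 to 0.70 between PAD4 or WRKY70 and an output gene, and 0.49 to 1.02 between EDS1 and any other. With 4 arrays, 1 of them far from the rest, such likeness rests mainly on that array.

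Out of 13513 probe sets that stand for 1 named gene, the nearest to PR1 by this measure were AT3G60420 (0.21), AT5G52760 (0.24), CHI (0.27), AT1G57630 (0.37) and UGT76B1 (0.42). CHI, annotated as a putative chitinase, gave 128.7 and 628.3 in Col-0 against 120.7 and 111.3 in xrn4-5. UGT76B1, a glycosyltransferase that acts on salicylate and related immune metabolites, gave 25.4 and 148.4 against 21.1 and 7.0. AT1G57630 gave 9.7 and 119.0 against 9.3 and 9.5. As for PR1, the 3 other arrays were low for these genes. Nearest to the mean profile of the 6 were AT1G57630 (0.07), AT5G52750 (0.14), AT2G18690 (0.14), AT1G19020 (0.16) and AT3G47480 (0.18). AT1G57630 and UGT76B1 had signals below the pseudocount of 32 on all arrays other than array 2 of Col-0. For AT1G57630, that array exceeded the next highest 12.3-fold in signal, with a margin of 1.856 on the log2(signal + 32) scale. For PR1 these values were 7.2-fold and 2.625. The distances of such dim genes therefore depend on the pseudocount, and likeness was not ranked with another one. Of the 70 probe sets with a margin of at least 1 for array 2 of Col-0, 29 have exactly 1 named gene and 4 are the genes followed here.

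Of 68 other genes of the salicylate pathway, 8 had a named probe set, so the rest of the pathway was measured here only in small part. No named probe set stood for ICS1, EDS5 or NPR1, the genes of salicylate synthesis, export and perception, which were therefore not analysed here. In limma, 0 of the 8 were higher and 0 lower in xrn4-5, both adjusted and at an unadjusted p under 0.05. Their median log2 difference was -0.12, and 0.06 without array 2 of Col-0, beside 0.016 and 0.005 for all probe sets. Array 2 of Col-0 was the highest array in 4 of the 8, and none reached a margin of 1.

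Those 4 genes were AT3G48080, GRX480, WRKY53 and AT5G52810. AT3G48080, a close homologue of EDS1 (EDS1B) and its immediate neighbour among protein-coding genes in TAIR10.1, gave 53.4 and 124.3 in Col-0 against 43.5 and 33.0 in xrn4-5, a log2 difference of -0.72 (limma unadjusted p = 0.0850, adjusted p = 0.680) that was -0.29 without array 2 of Col-0 (limma adjusted p = 0.832). How far the EDS1 and AT3G48080 probe sets detect each other's transcript was not tested. GRX480, a glutaredoxin that binds TGA factors and is induced by salicylate, gave 88.2 and 168.2 against 85.5 and 114.5. WRKY53, a regulator of senescence and defence, gave 138.8 and 294.8 against 178.1 and 192.7. AT5G52810 (SARD4), which acts in the synthesis of pipecolic acid, gave 466.6 and 825.9 against 575.1 and 405.0. Array 2 lay above array 1 in both genotypes in 3 of the 8 (GRX480, WRKY53 and, by 0.036 and 0.005 on the log2 scale, SAG101), against 27.0% of all probe sets.

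In the other 4 genes array 2 of Col-0 was not the highest array. SAG101, the alternative partner of EDS1, gave 66.2 and 68.7 in Col-0 against 90.5 and 90.9 in xrn4-5, a log2 difference of 0.30 (limma adjusted p = 0.746), and of 0.32 without array 2 of Col-0 (limma adjusted p = 0.816). WRKY6 gave 93.9 and 108.4 against 108.6 and 92.2. BSMT1, which methylates salicylate and benzoate, gave 514.5 and 409.3 against 405.5 and 437.9. UGT74F1, a salicylate glucosyltransferase, had its lowest signal, 66.6, on array 2 of Col-0 and its highest, 109.4, on array 2 of xrn4-5.

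Markers of the tissue and of other defence and stress states were read beside these genes. Of 17 markers of inflorescence, tapetum and pollen, 9 had a named probe set, none of them a floral homeotic gene. None of the 9 passed the limma test (adjusted p from 0.695 to 0.975). Their estimate was lower in xrn4-5 in 7 of 9, all 4 of the tapetum and all 3 of pollen, against 47.0% of all probe sets, with a median log2 difference of -0.20. Without array 2 of Col-0 it was again 7 of 9, with AGL24 in place of the tapetum gene AT5G07230, and the median was -0.16. Both xrn4-5 arrays lay below both Col-0 arrays in 5 of the 9 (AMS, ATA27, AT1G06170, TUA1 and ACT12), against 17.2% of all probe sets. ATA27, of the tapetum, gave 6481.2 and 5845.4 in Col-0 against 5235.0 and 5504.9 in xrn4-5. Array 2 of Col-0 was the highest array in 3 of the 9 and the lowest in 2, against 21.7% and 28.9% of all probe sets, and the median margin was -0.15, against 1.675 for the 6 salicylate genes and -0.19 for all probe sets. PDF1.2, the standard output gene of jasmonate and ethylene defence, gave 52.6 and 28.9 in Col-0 against 66.6 and 43.5 in xrn4-5. It was lower on array 2 of both genotypes, with a log2 difference from array 1 of -0.474 in Col-0 and -0.385 in xrn4-5. PDF1.2 was dim, with a mean signal of 47.9 over the 4 arrays, and did not pass the filter on dim probe sets. It was the only one of 6 genes in its list with a named probe set. Of 5 leaf senescence markers, 2 had a named probe set, and they went opposite ways: WRKY53, given above, was higher on array 2 of both genotypes. SAG29, the other, gave 1173.7 and 611.2 in Col-0 against 1281.8 and 560.5 in xrn4-5, lower on array 2 of both genotypes. Whether the levels of these markers bear on the salicylate genes was not tested. XRN4 itself had no named probe set and could not be used to check the labels.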

How the data were processed

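Total RNA (15 µg per array) was labelled with biotin and hybridized to ATH1 arrays, per the labels' protocols, and the submitters' processing notes name the GCOS software without a version. The authors deposited 1 linear intensity per probe set and array. The 2% trimmed mean was 500.04 on all 4 arrays, so values had been scaled together. The authors' deposited log2 ratios and change p-values of same-numbered arrays were only copied, and no source used here states how the p-value was computed.

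Intensities were analysed as log2(value + 32). All 22746 probe sets except 64 controls were fitted, so that no dim gene was lost, in limma 3.58.1 (R 4.3.3; lmFit, then eBayes with a trend), two-sided, with Benjamini-Hochberg adjustment at 0.05. There were 2 residual degrees of freedom and a prior of 2.94. The number of arrays limits the precision. Figures were drawn with matplotlib 3.10.9. Arrays of a genotype were no duplicates (46 and 47 identical values).

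The 6 genes and the lists were chosen with earlier results of these data known. The rule for naming genes of the pathway list took EDS1-family, ICS, NPR and WRKY genes and the 6 others with the smallest p. It took in all 8 genes with a named probe set, none of them an ICS or NPR gene. Also named were the 5 genes nearest in profile to PR1 and the 5 nearest to the mean of the 6. Of the probe sets, 13513 have 1 gene, 13436 of them matched to TAIR10.1, 503 have several and 8730 none. With no sequences used here, the planned promoter motif description was not run.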

Additional observations from a re-analysis of the deposited data

How the results depend on the processing

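Under 12 other settings (pseudocount, filter, normalization, variance prior, block, test per probe set, and each array left out), no gene passed an adjusted p under 0.05 (limma, or the test per probe set; 0.455 to 0.993), and 67 of 71 estimates kept their sign. The signs that turned were those of EDS1 (0.05), PAD4 (0.48) and WRKY70 (0.26) without array 2 of Col-0, and of PAD4 without array 1 of xrn4-5 (0.05). With 1 array left out, the log2 difference ranged from -2.76 to -0.14 for PR1, -2.49 to -0.10 for PR2, -2.57 to -0.04 for PR5, -1.34 to 0.26 for WRKY70, -1.15 to 0.48 for PAD4 and -0.34 to 0.05 for EDS1. PAD4 could not be fitted with the filter that leaves out the dimmest 40%.

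With the replicate block, PR1 had a limma adjusted p of 0.455, WRKY70 of 0.493, PR5 of 0.525, PR2 of 0.529, EDS1 of 0.715 and PAD4 of 0.724, and the block changed no call. What an array number stands for is not stated, and over all probe sets the step from array 1 to array 2 correlated at 0.215 between the genotypes, and at 0.424 without the dimmest 40%. Over the whole array, 1 probe set was called higher with a pseudocount of 1 and 1 with the filter, against 0 in the reported fit. The median of the 8 pathway genes was -0.12, and with 1 array left out it ranged from -0.34 (without array 1 of Col-0) to 0.06 (without array 2 of Col-0). The margins by array 2 of Col-0 and their alternatives were added after seeing the data. PR1, PR2 and PR5 held the first 3 ranks with a pseudocount of 64, quantile normalization, median centring and the filter. With a pseudocount of 1 they did not. The filter used the mean of all 4 arrays, with a minimum of 159.5, so array 2 of Col-0 itself counted toward passing. PR1 had 137.0 to 160.3 on the other 3 arrays, so its rank with the filter is no independent check. The causes were not tested.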
